A study of Mus musculus with 3 samples.

Results

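The collagen genes are the 42 protein-coding genes of the RefSeq annotation on chromosomes 1 to 19 whose symbol has the form Col, a type number, a and a chain number, of 20661 protein-coding genes on these chromosomes. The X-linked type IV genes Col4a5 and Col4a6 fall outside that rule. 5-methylcytosine (5mC) was mapped by MeDIP-seq, in which an antibody pulls down methylated DNA fragments for sequencing. The mice were C57Bl6/J males, 8 weeks of age, and their cardiomyocytes were isolated either after Sham surgery or after TAC, the aortic constriction that puts the left ventricle under pressure overload, here for 1 week per the series title. Each condition had 1 library, and another library of Input DNA without antibody served the authors' peak calling. The number of animals behind each library is not stated. With 1 library per condition there is no spread between replicates, so every difference below is between 2 libraries and no test was run. Strain, sex and age are the same in all groups.

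Collagens are secreted or membrane-bound proteins built from a triple helix of 3 chains. Fibrillar collagens such as types I, III and V form the load-bearing fibrils of the heart's interstitium, type IV forms the sheet of the basement membrane around each myocyte and capillary, and type VI forms beaded filaments between them. FACIT collagens (fibril-associated, with interrupted triple helices) attach to fibrils, transmembrane collagens are anchored in the cell surface, and multiplexins sit near basement membranes. In the heart most fibrillar collagen is made by fibroblasts, and fibrosis is a known feature of pressure overload. DNA methylation is often low at CpG-rich gene starts and higher within the bodies of genes.

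Few collagen genes had a peak at the start, and the comparison with the annotation at large depended on the window. Promoter windows (250 bases before to 50 bases after a start, RefSeq, GRCm38.p6) were given for 33 of the 42 genes, in 36 windows. A Sham peak overlapped the window of 1 gene, Col24a1, and TAC peaks overlapped those of 2 genes, Col8a1 and Col9a2. For comparison, 3.70% of the 16456 genes with a window were covered in Sham and 3.93% in TAC. The sequences below are the 250 bases before the start of these 3 genes, of the gene with the most CpG dinucleotides, Col4a1, and of a gene with none, Col3a1. They are printed 5′ to 3′ on the gene's strand, with each CpG (the letters CG, which read the same on both strands) in capitals.
Col8a1 (chr16:57754738-57754987, minus strand): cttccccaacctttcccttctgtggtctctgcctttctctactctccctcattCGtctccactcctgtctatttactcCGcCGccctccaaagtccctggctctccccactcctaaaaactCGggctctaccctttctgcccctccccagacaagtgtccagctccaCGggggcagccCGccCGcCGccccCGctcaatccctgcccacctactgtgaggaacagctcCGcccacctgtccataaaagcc
Col9a2 (chr4:121039316-121039565, plus strand): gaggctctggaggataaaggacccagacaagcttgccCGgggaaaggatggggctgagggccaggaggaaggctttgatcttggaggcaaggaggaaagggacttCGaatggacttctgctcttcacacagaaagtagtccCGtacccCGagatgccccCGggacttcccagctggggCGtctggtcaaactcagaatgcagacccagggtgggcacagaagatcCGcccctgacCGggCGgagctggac
Col24a1 (chr3:145292222-145292471, plus strand): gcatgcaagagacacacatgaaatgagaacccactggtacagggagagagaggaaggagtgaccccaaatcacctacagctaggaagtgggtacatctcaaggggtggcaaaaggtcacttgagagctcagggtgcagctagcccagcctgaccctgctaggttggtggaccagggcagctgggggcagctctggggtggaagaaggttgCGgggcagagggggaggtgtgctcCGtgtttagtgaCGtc
Col4a1 (chr8:11312827-11313076, minus strand): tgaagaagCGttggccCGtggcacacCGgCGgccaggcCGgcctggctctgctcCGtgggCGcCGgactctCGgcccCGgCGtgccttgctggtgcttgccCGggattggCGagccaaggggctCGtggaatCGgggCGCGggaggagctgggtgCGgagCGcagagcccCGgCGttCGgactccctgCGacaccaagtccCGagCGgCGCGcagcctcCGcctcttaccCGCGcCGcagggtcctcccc
Col3a1 (chr1:45311288-45311537, plus strand): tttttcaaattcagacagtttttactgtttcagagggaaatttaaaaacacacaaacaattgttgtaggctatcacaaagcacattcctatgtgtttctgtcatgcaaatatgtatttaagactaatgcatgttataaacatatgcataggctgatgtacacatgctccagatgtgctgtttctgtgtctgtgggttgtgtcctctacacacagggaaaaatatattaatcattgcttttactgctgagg

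Only the Col8a1 peak lay over most of its stretch. This TAC peak (57754778 to 57755278 on chromosome 16) covered 210 of the 250 printed bases and 9 of their 10 CpGs, and the nearest Sham peak was 11714 bp from the window. Its place in the TAC list was 47.6%, where 0% is the top and 100% the end of a list. Col8a1 encodes a short-chain network collagen of the vessel wall and of Descemet's membrane in the eye. At Col9a2, a chain of the cartilage collagen IX, the TAC peak covered 55 printed bases with 1 of 9 CpGs. At Col24a1, a minor fibrillar collagen, the Sham peak covered 80 printed bases and none of the 3 CpGs. These 2 peaks thus reached only the far edge of the stretch.

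Numbers of CpGs at collagen starts varied widely. The windows held 0 to 37 CpGs, with a median of 12 against 14 over all 20084 windows of protein-coding genes, of which 95.6% hold at least 1 CpG. None of the 14 collagen windows with 15 or more CpGs met a peak, and of all such windows only 1.74% did in Sham and 2.16% in TAC, so none among 14 is near the general share. Among the 17 collagen windows with 3 to 14 CpGs, 1 was covered in Sham and 2 in TAC, against 5.88% and 5.92% of all windows of that kind. Col4a1 and Col4a2 encode the main basement membrane chains and are read away from each other. Their windows hold 37 and 33 CpGs, and the nearest peak of either library to both lay within Col4a2, 5835 bp from the Col4a1 window in Sham and 5861 bp in TAC. The Col5a1 window held 34 CpGs, and its nearest peaks were 3361 bp away in Sham and 3292 bp in TAC. The windows of Col3a1 and Col28a1 and 1 of those of Col9a1 held no CpG. The nearest peaks to the Col3a1 window were 20275 bp away in Sham and 45883 bp in TAC, while a TAC peak ended 23 bp from the Col28a1 window. At Col9a1 the gaps were 306 bp in Sham and 217 bp in TAC. When the window was set to 1000 bp before and after the start of the annotated gene body, 8 of the 33 genes were covered in Sham and 12 in TAC. That start can differ from the one behind the promoter window, as at Col27a1 and Col28a1, so the window changed in place as well as in size. Over all 16456 genes with a strand the shares at that size were 11.9% in Sham and 13.4% in TAC. In this wider window collagen starts were thus covered more often than starts at large in both libraries, though with 33 genes. Genes covered in both at that size were Col16a1, Col17a1, Col18a1, Col6a2, Col6a3, Col6a6 and Col9a1.

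Peaks in collagen gene bodies were counted by midpoint. A peak marks enrichment over Input and not a methylation level, and a gene without a peak may still be methylated below the calling threshold. In Sham 448 peaks and in TAC 438 peaks lay in collagen genes, which gives a TAC to Sham ratio of 0.978 (exact 95% interval 0.855 to 1.12). All protein-coding genes held 62950 and 67101 peaks, a ratio of 1.07 (1.05 to 1.08), which lies inside the interval of the collagen genes. Intervals here and below cover counting error only, and neighbouring peaks are not independent. The TAC library was sequenced more deeply, at 14658177 tags against 12585289 in Sham, and its calling threshold was lower per tag. The ratio was also taken at a nearly equal threshold per sequenced tag, with tag numbers of peaks inferred from list order. It was then 0.920 (0.802 to 1.06) for collagen genes and 0.971 for all genes. Peaks covered 302 kb of the collagen genes in Sham, at a mean width of 674 bp, and 282 kb in TAC, at 643 bp.

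Per length, collagen genes were richer in peaks than the annotation at large. They held 9.10 Sham and 8.90 TAC peaks per 100 kb, against 6.28 and 6.70 over all protein-coding genes. Their median length was 110 kb, against 17.5 kb, so the comparison was also made by length. Of genes under 50 kb, the 15 collagen genes held 53 Sham and 38 TAC peaks, or 12.5 and 8.97 per 100 kb, beside 7.06 and 6.92 for all genes. The ratio in these short collagen genes was 0.717 (0.460 to 1.11), beside 0.980 for all short genes. From 50 to 150 kb, 18 collagen genes held 229 and 230 peaks, or 10.98 and 11.03 per 100 kb, beside 6.89 and 7.08 for all genes. The 9 longer than 150 kb held 166 and 170, or 6.88 and 7.05 per 100 kb, beside 5.75 and 6.60 for all genes of that length, so the excess was smallest there. Their ratio was 1.024 (0.822 to 1.276), beside 1.15. Among the classes the multiplexins were the densest, at 15 peaks per 100 kb in each library, and the FACIT genes in Sham the sparsest of all class values, at 5.08.

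Within the gene body, peaks were spread over the length. For the 33 genes whose strand the promoter table gives, each body was divided into 3 equal parts. The first part held 36.0% of Sham peaks and 37.2% of TAC peaks, and the last part 28.02% (23.5 to 32.9) and 28.5% (23.8 to 33.6). Over all genes with a known strand the last part held 36.1% in Sham and 34.1% in TAC, above the collagen intervals. A smaller share of collagen peaks than of all peaks thus lay in the last part in both libraries, though peaks of 1 gene are not independent. This comparison was not split by gene length, and collagen genes are longer than genes at large.

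Of the 42 genes, 19 held fewer TAC than Sham peaks (45.2%), 13 more (31.0%), 8 equal numbers and 2 none (4.76%). The corresponding shares over all protein-coding genes were 22.0% fewer and 25.9% more, with 34.0% free of peaks. Among the 29 collagen genes with at least 10 peaks in the libraries together, 4 had at least 1.5 times as many TAC peaks (13.8%), and over all genes with 10 peaks the share was 17.5%. The opposite difference was seen in 1 gene (3.45%), Col6a3, against 10.4% of all genes. Peaks in Sham alone were found in 3 genes (7.14%), Col6a1, Col3a1 and Col10a1, against 6.11% of all genes. No collagen gene had peaks in TAC alone, against 7.43% of all genes. With 29 and 42 genes behind them, these shares move by several points with each gene. The shares of the 42 are not like for like either, since collagen genes are longer and more of them hold a peak at all.

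**Figure D1:**
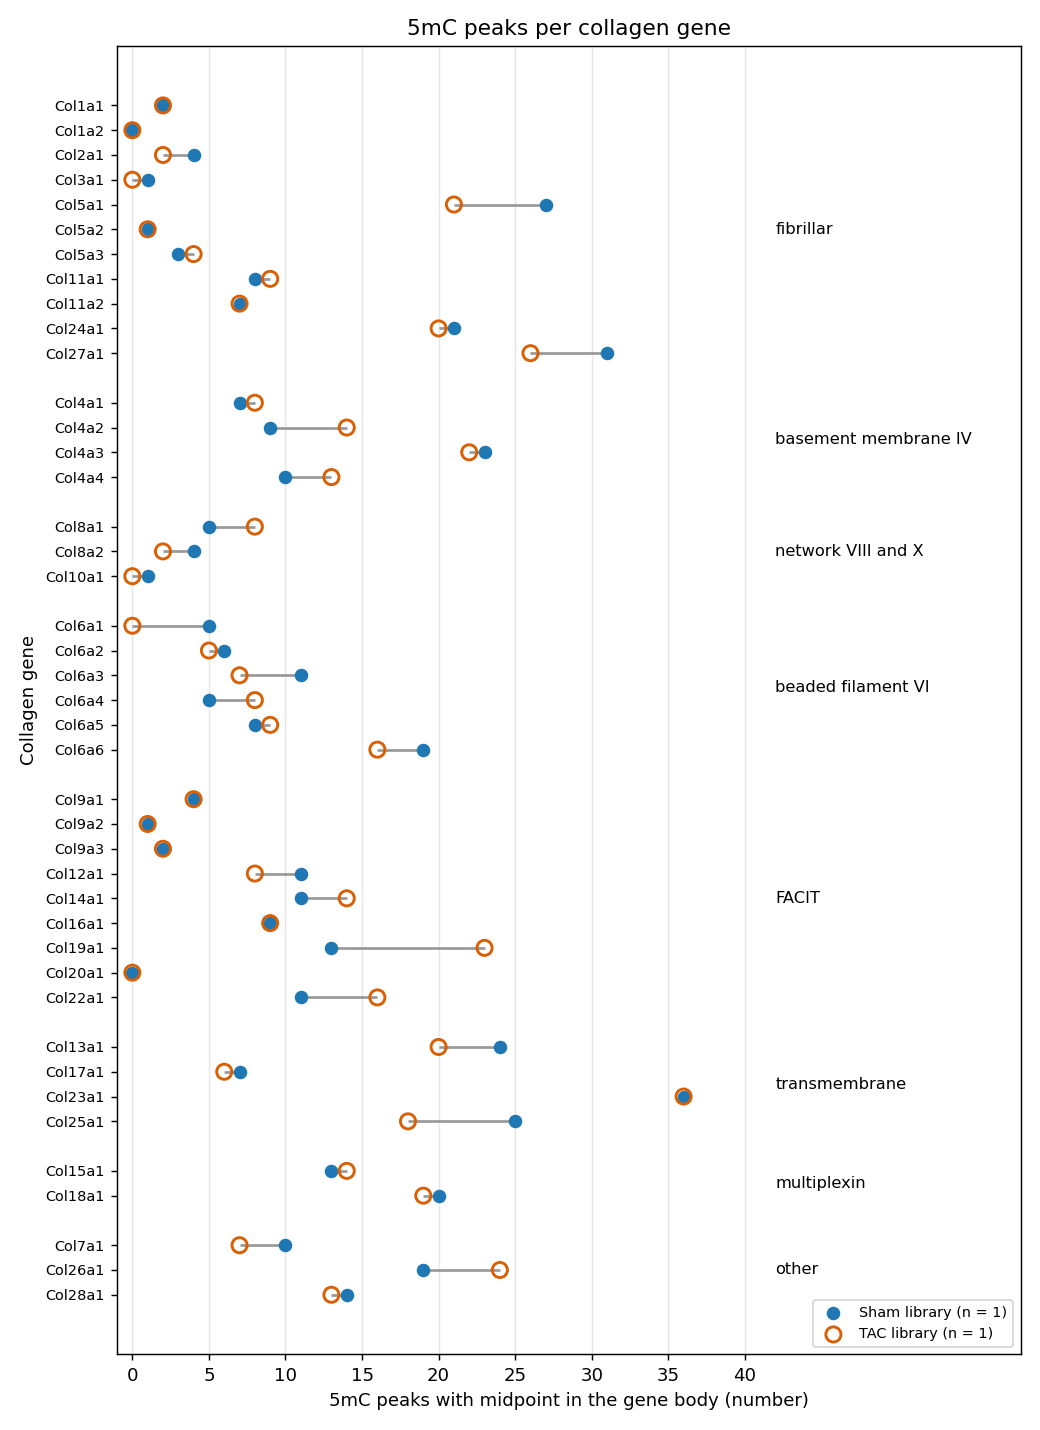
Number of 5mC peaks with midpoint in each of the 42 collagen genes (x axis), grouped by class (y axis), for the Sham library (filled blue) and the TAC library (open orange), 1 library each. The widest gaps are at Col19a1 (13 and 23), Col25a1 (25 and 18), Col5a1 (27 and 21), and Col6a1, Col4a2, Col22a1, Col26a1 and Col27a1, with a gap of 5 peaks each.

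The 11 fibrillar genes had 105 peaks in Sham and 92 in TAC (ratio 0.876, interval 0.655 to 1.17). The genes of types I and III, the main structural collagens of the heart, held few peaks each and differed in density. Col1a1, the α1 chain of type I, held 2 peaks in each library, and both were shared. At 16.8 kb it is short, and its 11.9 peaks per 100 kb are above the collagen values of 9.10 and 8.90. Collagen genes under 50 kb held 12.5 in Sham, above Col1a1, and 8.97 in TAC, below it. The one near its far end (94950112 to 94951642 on chromosome 11 in Sham, 1531 bp) stood at 6.35% of the Sham list and, at 1640 bp, at 15.7% of the TAC list. Its neighbour at 94942913 stood at 27.6% in Sham and 64.4% in TAC. Col1a2, the α2 chain of type I, held no peak in either library over 35.9 kb. Col3a1, the type III chain, held 1 unshared Sham peak (45331862 to 45332532 on chromosome 1) and no TAC peak over 38.2 kb. Col5a2, which lies 24.6 kb from Col3a1 and encodes a chain of type V, held 1 peak in each library at different places, 35.5 kb from its lower end in TAC and 64.9 kb in Sham. None of these 4 genes held more than 2 peaks in a library.

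Col5a1 and Col27a1 carried most fibrillar peaks. Col5a1, the chain present in nearly all type V collagen and a nucleator of fibrils, held 27 Sham and 21 TAC peaks on chromosome 2 (27886381 to 28039510), of which 14 were shared in each. From 103 to 121 kb after its start it held 4 Sham peaks and no TAC peak. The last of these (28006327 to 28008240, 1914 bp) stood at 13.3% of the Sham list and was the widest unshared collagen peak in that library. Between 16.4 and 27.9 kb the order was opposite, with 4 TAC-only peaks and 1 Sham-only peak. The TAC share of its peaks was 43.8%, with an interval (29.5 to 58.8) that spans an even split. Col27a1, a fibrillar collagen of cartilage and developing tissue, had 31 Sham peaks, 11 of them unshared, and 26 TAC peaks, 5 of them unshared. Col24a1 held 21 and 20, of which 8 and 8 were unshared.

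The other fibrillar genes had smaller sets. Col11a1, a cartilage collagen chain related to Col5a1, held 8 Sham and 9 TAC peaks, and Col11a2 held 7 in each library. Col11a2 is short, at 27.8 kb, and had 25.2 peaks per 100 kb in each library, among them the widest TAC peak in any collagen gene (34043587 to 34046177 on chromosome 17, 2591 bp). Col2a1, the main cartilage collagen, held 4 and 2, and Col5a3 held 3 and 4. These small numbers cannot separate the libraries.

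Type IV genes lay on the other side of the overall ratio. The 4 autosomal genes had 49 peaks in Sham and 57 in TAC (ratio 1.16, interval 0.780 to 1.74). Col4a1 held 7 and 8 peaks, and Col4a2, its neighbour on chromosome 8, held 9 and 14. All but 1 of the 9 Sham peaks of Col4a2 were shared, and 6 of its 14 TAC peaks were TAC-only. These 6 stood at 39.3% to 85.1% of the TAC list. Col4a3 and Col4a4 encode chains of the specialised membrane of kidney and inner ear and overlap each other by 114 bp on chromosome 1. Col4a3 held 23 and 22 peaks and Col4a4 10 and 13. At 17.0 Sham and 16.3 TAC peaks per 100 kb, Col4a3 was denser than Col4a1, at 6.12 and 6.99.

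Type VI genes had 54 peaks in Sham and 45 in TAC (ratio 0.833, interval 0.548 to 1.26), and the unshared peaks were 18 in Sham and 9 in TAC. Col6a1, the α1 chain of type VI, held 5 Sham peaks and no TAC peak. Counted from its start on the minus strand of chromosome 10 (76708792 to 76726044), they lay at 2.6, 7.7, 9.9, 14.8 and 16.4 kb. The first (76723007 to 76723788, 782 bp) stood at 21.5% of the Sham list. The other 4 stood at 98.4%, 69.8%, 84.5% and 75.8%, in order of distance from the start, all in the lower part of the list. The interval of the TAC share for 0 of 5 peaks reaches 52.2% and so includes an even split.

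The neighbour of Col6a1 differed from it. Col6a2, 85.2 kb away, held 6 and 5 peaks, and 5 of each were shared. It holds the collagen peak nearest to the top of both lists (76598964 to 76600839 in Sham, 1876 bp, at 0.47%, and 76598977 to 76600824 in TAC, 1848 bp, at 0.34%). Between both genes lay 12 Sham and 11 TAC peaks. Col6a3, the α3 chain, had 11 Sham peaks, 5 of them unshared, and 7 TAC peaks, 1 of them unshared. A Sham-only peak (90794822 to 90795889 on chromosome 1, 1068 bp) stood at 7.91% of its list. The row of Col6a4, Col6a5 and Col6a6 on chromosome 9 held 5 and 8, 8 and 9, and 19 and 16 peaks. Of their shared peaks, 1 in Col6a5 moved from 98.3% in Sham to 17.5% in TAC, and 1 in Col6a4 from 34.2% to 92.8%, so list position changed in both directions within this row.

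**Figure D2:**
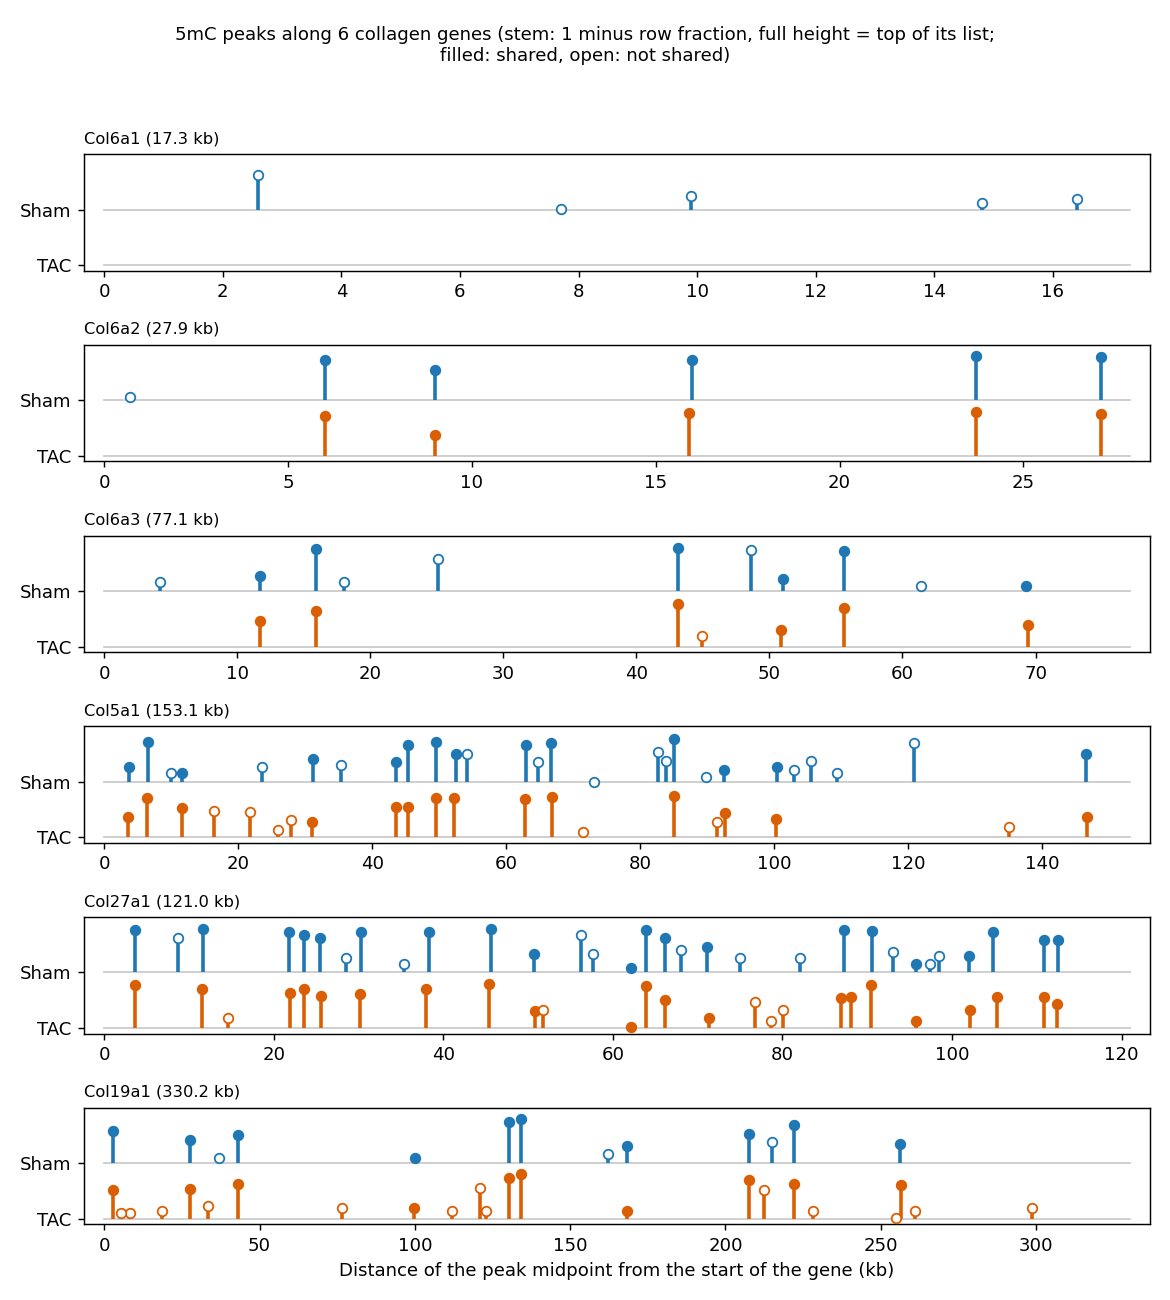
Peaks along 6 collagen genes, by distance of the midpoint from the gene's start in kb (x axis), for Sham (upper, blue) and TAC (lower, orange). Stem height is 1 minus the row fraction, so tall stems are near the top of a list, filled heads are shared and open heads unshared. Col6a1 has 5 open Sham heads and none in TAC, Col6a2 has 5 shared peaks in each, and Col19a1 has 13 open TAC heads.

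FACIT genes had 62 peaks in Sham and 77 in TAC (ratio 1.24, interval 0.877 to 1.76), the highest ratio of the 8 classes. Most of the excess came from Col19a1, a collagen of muscle and of synapse formation in the brain, with 13 Sham and 23 TAC peaks over 330 kb. In each library 10 of them were shared, which leaves 3 unshared in Sham and 13 in TAC. Of these 13, 11 stood beyond 70% of the TAC list. Its peak nearest to the top of the lists (24453240 to 24454019 in Sham) stood at 0.78% in Sham and 0.45% in TAC. The TAC share was 63.9% (46.2 to 79.2), an interval that spans an even split.

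Other FACIT genes went both ways. Col22a1, found at the junction of muscle and tendon, held 11 and 16 peaks, and Col14a1, which binds fibrils in tendon and skin, 11 and 14. Col12a1, a relative of Col14a1 in dense connective tissue, held 11 and 8, and Col16a1 held 9 in each library, 8 of them shared. The type IX genes of cartilage held 4 and 4 (Col9a1), 1 and 1 (Col9a2) and 2 and 2 (Col9a3). The shared Col9a2 peak stood at 97.5% of the Sham list, at 501 bp, and at 22.1% of the TAC list, at 816 bp. Col20a1 held none.

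Transmembrane collagens had 92 peaks in Sham, 35 of them unshared, and 80 in TAC, 22 of them unshared (ratio 0.870, interval 0.636 to 1.19). Col23a1 had the most peaks of any collagen gene, 36 in each library, of which 25 were shared in each. Col25a1, a collagen of neurons and motor nerve development, had 25 Sham peaks, 14 of them unshared, and 18 TAC peaks, 7 of them unshared. Col13a1, a component of the neuromuscular junction, held 24 and 20, and Col17a1, of the skin's hemidesmosomes, 7 and 6. No gene of this class held more TAC than Sham peaks.

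The remaining classes were near an even split. The multiplexins Col15a1, a basement membrane collagen of muscle and heart, and Col18a1, the source of endostatin, held 13 and 14, and 20 and 19 peaks. Of the 33 multiplexin peaks in each library, 25 Sham and 26 TAC peaks were shared. Network collagens VIII and X held 10 peaks in each library, with Col8a1 at 5 and 8, Col8a2 at 4 and 2, and Col10a1 at 1 and 0. Col10a1, the collagen of growth plate cartilage, lies within Nt5dc1, so its peak cannot be assigned to either gene alone. Col7a1, which forms the anchoring fibrils of skin, held 10 and 7 peaks in 31.3 kb, the highest Sham density of any collagen gene at 32.0 per 100 kb. Col26a1 held 19 and 24, and Col28a1 held 14 and 13.

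**Figure D3:**
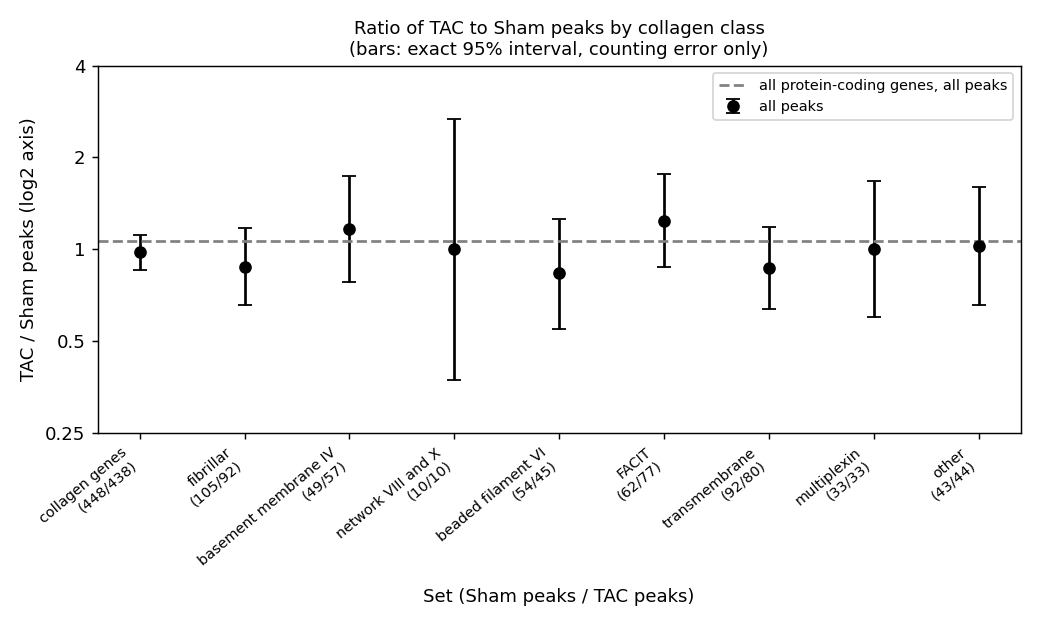
Ratio of TAC to Sham peaks (y axis, log2 scale) for all collagen genes and for each class (x axis), with exact 95% intervals for counting error and a dashed line at the ratio of all protein-coding genes, 1.07. Every class interval includes that line, from beaded filament VI at 0.833 to FACIT at 1.24.

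The regions around the genes had a ratio near that of all genes. Within 500 kb before and after, outside collagen genes, lay 2526 Sham and 2680 TAC peaks (ratio 1.06, interval 1.004 to 1.12). The class values of the flanks ran from 0.927 around transmembrane to 1.31 around network collagen genes. Around FACIT genes the flank ratio was 1.16, around type VI genes 0.971 and around fibrillar genes 1.06. The flank ratio lies inside the interval of the collagen genes themselves.

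Most collagen peaks were found in both libraries. Shared peaks, with at least 1 bp of overlap, made up 66.7% of Sham collagen peaks (62.2 to 71.1) and 68.7% of TAC collagen peaks (64.1 to 73.0). The corresponding values of all protein-coding genes were 63.8% and 60.2%, so the TAC value of all genes lay below the collagen interval and the Sham value within it. Unshared collagen peaks numbered 149 in Sham and 137 in TAC, a ratio of 0.919 (0.724 to 1.17), beside 1.17 over all genes. At the nearly equal threshold per tag these ratios were 0.758 (0.590 to 0.971) and 0.917. Sham had more unshared peaks in fibrillar (41 and 29), type VI (18 and 9) and transmembrane genes (35 and 22), and TAC had more in FACIT (19 and 34) and type IV genes (11 and 19). Each class interval of this ratio included 1.

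Sharing followed list position. In the first 25% of the Sham list 93.8% of collagen peaks were shared (121 of 129), and in the last 25% 40.8% (42 of 103). For TAC the values were 96.9% (123 of 127) and 28.2% (24 of 85). Peaks of all protein-coding genes fell nearly alike between these ends, from 92.4% to 36.9% in Sham and from 93.0% to 30.1% in TAC. From 50% to 75% of the TAC list, 63.0% of collagen peaks were shared (52.8 to 72.4), above the 46.5% of all genes. In every other step of either list the collagen interval included the value of all genes. The median row fraction, where 0 is the top of a list, was 0.490 (interval 0.429 to 0.530) for Sham and 0.408 (0.368 to 0.462) for TAC collagen peaks, and 0.475 and 0.487 over all protein-coding genes. The intervals of both collagen medians overlap, and the TAC value of all genes lies outside the TAC collagen interval. List positions from lists of different length show no change in signal.

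**Figure D4:**
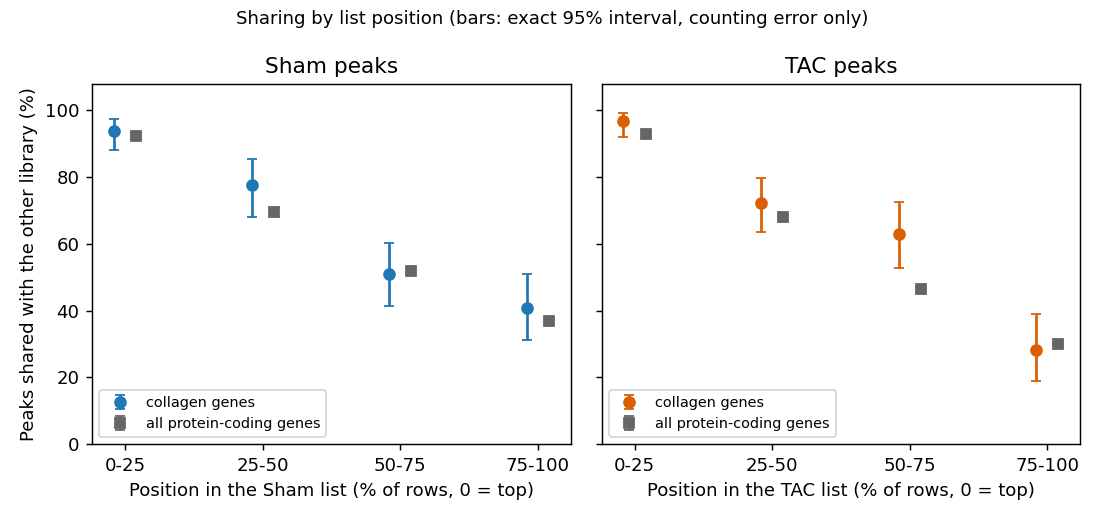
Percent of peaks shared with the other library (y axis) by position in the Sham list (left) and TAC list (right) in steps of 25% of rows (x axis), for collagen genes (circles) and all protein-coding genes (squares), with exact 95% intervals for counting error. Among collagen peaks the share falls from 93.8% to 40.8% in Sham and from 96.9% to 28.2% in TAC.

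Within the first 25% of a list, 8 Sham collagen peaks (6.20%) and 4 TAC collagen peaks (3.15%) were unshared, beside 7.58% and 7.05% for all protein-coding genes. In Sham they lay in Col23a1 (51436628 to 51437824 on chromosome 11, at 6.16%), Col6a3, Col13a1 (61844991 to 61846258 on chromosome 10, at 10.2%), Col5a1, Col27a1 (2 peaks), Col6a1 and Col26a1. In TAC they lay in Col18a1 (77088206 to 77088832 on chromosome 10, at 13.5%), Col6a5, Col14a1 (55458093 to 55459433 on chromosome 15, at 19.1%) and Col24a1. The Col14a1 peak was 1341 bp wide and the other 3 TAC peaks 501 to 628 bp, while the 8 Sham peaks were 782 to 1914 bp wide. The median position of unshared collagen peaks was 67.3% in Sham and 70.7% in TAC, beside 68.2% and 69.9% for all genes.

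Shared collagen peaks moved in both directions between the lists. In the 299 Sham peaks with a TAC partner, the TAC position minus the Sham position had a median of -0.90 percentage points, with a middle range from -14.4 to 10.3. Over the 40179 such peaks of all genes the median was -0.70, with -14.18 to 10.04. TAC placed 163 of the collagen peaks (54.5%) nearer to the top and Sham 136, and over all genes TAC did so for 53.8%. By class, the number nearer to the top in TAC was 35 of 64 in fibrillar, 26 of 38 in type IV, 5 of 6 in network, 16 of 36 in type VI, 27 of 43 in FACIT, 29 of 57 in transmembrane, 7 of 25 in multiplexin and 18 of 30 in the other genes. The largest move was in Col23a1, where a Sham peak of 501 bp at 99.99% met a TAC peak of 1682 bp at 15.1%. The largest in the other direction was the Col6a4 peak given above, followed by a Col7a1 peak at 14.1% in Sham and 68.4% in TAC.

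**Figure D5:**
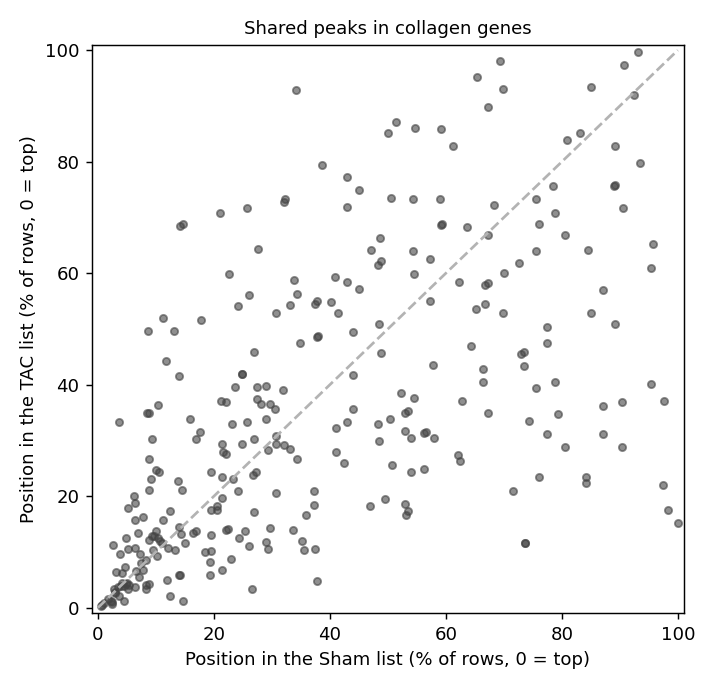
Position of each of the 299 shared collagen peaks in the Sham list (x axis) and of its TAC partner in the TAC list (y axis), in percent of rows with 0 at the top; the dashed line marks equal positions. Points lie on both sides, 163 below the line and 136 above it.

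Genes that make, process, cut or bind collagen were counted in the same way, from 57 genes in 5 lists. Together they had 280 peaks in Sham and 266 in TAC (ratio 0.95, interval 0.80 to 1.13), with more TAC peaks in 19, fewer in 16, equal numbers in 15 and none in 7. The 17 biosynthesis genes held 56 in each library. Among them P4ha3, a prolyl hydroxylase chain, held 8 and 8, P3h2, a prolyl 3-hydroxylase, 8 and 10, Colgalt2, a collagen galactosyltransferase, 6 and 7, Plod1, a lysyl hydroxylase, 6 and 4, and the collagen chaperone Serpinh1 0 and 1.

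Processing and crosslinking genes held 120 and 104 peaks, a ratio of 0.867 (0.660 to 1.14). Adamts2 and Adamts14, which remove the N-propeptide of procollagen, held 40 and 29, and 22 and 17, and Adamts3 held 11 and 10. The C-proteinase genes Bmp1, Tll1 and Tll2 held 5 and 8, 10 and 15, and 10 and 11, and their enhancer gene Pcolce2 6 and 7. Lox, the lysyl oxidase that crosslinks fibrils, held 0 and 1. Its relatives Loxl1, Loxl3 and Loxl4 held 7 and 2, 5 and 2, and 3 and 1, while Loxl2 held none, and these 4 were picked out after their values were seen.

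Degradation genes held 33 and 28 peaks, with Mrc2, a collagen uptake receptor, at 13 and 9, Timp2 at 8 and 6, and Mmp2 at 4 and 5. Receptor genes held 51 and 54, with Ddr2 at 11 and 13, and the collagen-binding integrin genes Itga11 at 20 and 14, Itga2 at 11 and 10 and Itga1 at 4 and 8. Fibril regulators held 20 and 24, with Prelp at 5 and 5 and Postn, a matrix protein of activated fibroblasts, at 1 and 2. Each list's interval included the ratio of all genes, 1.07.

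Peaks do not measure expression, so the labelled cell type could not be checked from them. The fibroblast marker genes, 3 of which are collagen genes, held 8 Sham and 11 TAC peaks over 7 genes, with Col1a2, Tcf21 and Lum at 0 in both libraries. The 9 cardiomyocyte marker genes held 34 and 58 (ratio 1.71, interval 1.10 to 2.69), of which Ryr2 alone held 20 and 31. More TAC than Sham peaks lay in 7 of the 9, equal numbers in 1 and none in 1. The TAC to Sham ratio was 1.07 over all protein-coding genes and 1.15 over those longer than 150 kb, which include Ryr2 and Ttn (5 and 9). It was 0.980 under 50 kb and 1.03 from 50 to 150 kb. The shorter markers held 3 and 5 (Myh6), 1 and 4 (Actn2), 2 and 3 (Myl2), 0 and 2 (Myl3), 1 and 2 (Tnni3) and 2 and 2 (Tnnt2), and Pln none. The part of gene length in the marker ratio was not tested. Endothelial markers held 28 and 23, smooth muscle and pericyte markers 18 and 19, and immune cell markers 9 and 17. The part of other cell types in the collagen values was not tested.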

How the data were processed

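MeDIP-seq peaks of 1 Sham and 1 TAC library were analysed, and the Input library entered only the authors' peak calling. The submitters' processing notes name the build mm10 and the tools HOMER 4.5, BWA 0.7.4-r385 and Picard. HOMER called peaks separately in each library in its histone style, per the file headers, at least 4-fold over input, with peaks of 500 bp (stitched into longer regions) kept 1000 bp apart. The file headers give tag thresholds of 11 for Sham and 12 for TAC. The deposited score is 1 for all 135886 Sham and 162107 TAC peaks, so order in the list (row fraction) stood in for rank. The lists fall into 352 and 414 blocks sorted by position, read here as falling tag numbers with 8 in the last block. No label or header states this reading, and it gives some listed peaks fewer tags than the header thresholds. It was used only for the nearly equal threshold, at least 11 tags in Sham and 13 in TAC (8.74 and 8.87 per 10000000).

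Python 3.11.15, pandas 2.3.3 and scipy 1.17.1 were used. Gene bounds came from RefSeq GRCm38.p6, the assembly mm10 names. Intervals are exact Clopper-Pearson, from binomial shares for ratios. Counting functions were tested on simulated intervals. Members, lists and classes were chosen with earlier results of these data known. Genes named were those with at least 10 peaks, with peaks in 1 library or none, of types I, III, IV, V and VI, or with a covered start, and the text adds the remaining members. Pathway genes named hold at least 10 peaks together or are Lox, Serpinh1, Ddr2, Mmp2, Bmp1 or Postn, apart from the 4 Loxl genes. For 9 genes no promoter window or strand was used, so the values at starts and by part of the gene body leave them out. These are Col1a1, Col2a1, Col4a3, Col5a2, Col9a3, Col12a1, Col14a1, Col22a1 and Col26a1.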

Additional observations from a re-analysis of the deposited data

How the results depend on the processing

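Of 94 recomputed values for 16 results, 91 stayed within the interval of the value reported (for row fractions the order-statistic interval of the median, and, for counts of starts, within 1.5 times it) and 3 moved. With the TAC list held to the Sham number of rows, unshared collagen peaks had a TAC to Sham ratio of 0.665, beside 0.745 over all protein-coding genes. With 1000 bp before and after the start of the annotated gene body as the window, the covered starts numbered 8 in Sham and 12 in TAC, of 33 genes. That window is wider by construction and in some genes is set on a different start. Over all genes with a strand it was covered in 11.9% in Sham and 13.4% in TAC. Over all settings run, the TAC to Sham ratio of collagen peaks ran from 0.879 with the TAC list so held to 1.01 in the first 80% of each list, where the interval was 0.876 to 1.17. Sham sharing ran from 62.3%, where overlap had to cover at least 50% of the peak, to 70%, and TAC sharing from 66.4% to 72.3%. The type IV class had no value without genes that overlap another protein-coding gene, since all 4 overlap a neighbour. The nearly equal threshold was chosen after the data were seen. No paired analysis was possible because each condition has 1 library. No depth per peak was used apart from the inferred tag numbers behind the nearly equal threshold. Signal within shared peaks was not compared.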
